A study of Homo sapiens with 8 samples.

Results

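The TMED genes code for the p24 family of cargo receptors, and 8 of them were examined here in cancer cells transfected with PIR siRNAs or with miRNAs. The members were TMED1, TMED2, TMED3, TMED4, TMED5, TMED7, TMED9 and TMED10, taken by gene symbol from the array annotation with every non-control probe of each. Of these 8 genes, 7 had a probe, and TMED5 and TMED10 had 2 each, which gave 9 probes of 58201 on the array. The family was chosen by its TMED10 ratios, which were low by both probes in cells with PIR siRNAs, so the values on those 2 arrays are given as a description, with no test.

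The arrays were 8 Agilent 60K arrays, each with mock RNA labelled with Cy3 and RNA of transfected cells labelled with Cy5. PC3 prostate cancer cells carried si-PIR-2 or si-PIR-3, which are siRNAs against PIR (pirin, an iron-binding nuclear protein that acts as a transcriptional cofactor). SK-MES-1 lung cancer cells carried miR-144-5p or miR-144-3p, SW1990 pancreatic cancer cells and MDA-MB-231 breast cancer cells carried miR-204-5p, and PANC1 pancreatic cancer cells carried miR-130-5p or miR-130-3p. The labels name the mock cells as cells with no transfection, so on any single array the transfected RNA and the transfection itself cannot be told apart, and no dyes were swapped.

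The p24 proteins are small type I membrane proteins that cycle between the endoplasmic reticulum (ER) and the Golgi. A luminal GOLD domain and a coiled coil bind cargo and partner p24 proteins, and a short cytoplasmic tail binds the COPII coat for export from the ER and the COPI coat for return to it. They are best known as receptors for GPI-anchored proteins. The family has an alpha, a beta, a gamma and a delta branch, and members of different branches assemble with each other. Of the genes examined here, TMED4 and TMED9 are alpha, TMED2 beta, TMED1, TMED3, TMED5 and TMED7 gamma, and TMED10 delta members. TMED2 and TMED10 are the only human members of their branches.

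The mature miRNAs of 3 of the transfections are shown because TMED10 differed between them. Each is written 5′ to 3′ as in RefSeq on GRCh38.p14, with the seed, the bases that lead target pairing, in capitals.
hsa-miR-144-5p: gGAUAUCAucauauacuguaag
hsa-miR-144-3p: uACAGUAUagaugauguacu
hsa-miR-204-5p: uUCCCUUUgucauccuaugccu
The first 2 are the opposite strands of a single hairpin on the minus strand of chromosome 17 (28861583 to 28861604 for the 5p strand and 28861548 to 28861567 for the 3p strand), and they do not share a seed. The miR-204-5p gene lies on the minus strand of chromosome 9 at 70810031 to 70810052. The labels do not say which miR-130 gene was meant, so no sequence is given for it.

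The 5 lines were checked against markers of their labelled tissue in the mock channel. Of the prostate markers, HOXB13 was well above background in PC3 and KLK3 was not, while HOXB13 was also above background in SW1990 and PANC1. Of the squamous markers, TP63 and KRT14 were well above background in SK-MES-1, whereas KRT5 and DSG3 were not, and SW1990 also had 2 of 4, KRT5 and KRT14, with the other 3 lines at 0. Pancreatic ductal markers gave 3 of 4 in SW1990 and 2 of 4 in PANC1, with PDX1 not above background in either, but the other 3 lines had the same 2 of 4 as PANC1 (KRT19 and KRT7). All 4 breast markers were above background in MDA-MB-231, though these also gave 3 or 4 of 4 in the other lines. The ESR1 call in MDA-MB-231 was weak. Its log2 mock level there was -2.96, below the -2.73 of PANC1, where ESR1 was not called above background. The targeted gene, PIR, had a log2 ratio of transfected over mock of -5.46 with si-PIR-2 and -4.27 with si-PIR-3, and it lay between -0.24 and 0.05 with miR-144-5p, miR-144-3p, miR-204-5p and miR-130-3p but at -1.59 with miR-130-5p in PANC1. All 9 TMED probes were well above background in both channels on all 8 arrays, so none of the values below is a bound.

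TMED10 was low on 4 of the 8 arrays, those of PC3 and SK-MES-1, and near its mock level on those of the other 3 lines. TMED10 is the delta member of the family, also known as p23 or TMP21, a modulator of gamma-secretase. Its 2 probes lie on the minus strand of chromosome 14 (hg19), A_33_P3252093 at 75598202 to 75598261 and A_24_P917833 at 75598669 to 75598728. The array annotation of A_33_P3252093 also lists a transcript of the pseudogene TMED10P1, whose signal cannot be separated from that of TMED10 by this probe, and that of A_24_P917833 does not.

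With si-PIR-2, probe A_33_P3252093 had a signal of 14359 in mock and 4188 in transfected PC3 cells. With si-PIR-3, the signals were 13271 and 3314. These are 3.43 and 4.0 times lower signals in transfected cells. Probe A_24_P917833 gave 4126 and 1374 with si-PIR-2 and 3852 and 1047 with si-PIR-3, that is 3.00 and 3.68 times lower. The mean log2 ratio over both siRNAs was -1.89 ± 0.158 (SD, n = 2) for A_33_P3252093 and -1.73 ± 0.207 for A_24_P917833. Both siRNAs thus had similar TMED10 values, which chose the family; of all 29370 probes tested on this pair of arrays, 0.426% lay below -1 on both. In RNA of whole cultures, fewer cells that express a gene and less RNA per cell cannot be told apart.

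TMED10 was also low with both strands of miR-144 in SK-MES-1. The rule that chose the family did not use these arrays, though earlier results of these data were known when it was made. With miR-144-5p, the signal of A_33_P3252093 was 19162 in mock and 6975 in transfected cells, a log2 ratio of -1.46, and A_24_P917833 had 4888 and 2115, a log2 ratio of -1.21. With miR-144-3p, A_33_P3252093 had 15671 and 8472 (log2 ratio -0.89) and A_24_P917833 had 4294 and 2551 (-0.75). The transfected signals were 2.75 and 2.31 times lower than mock with the 5p strand and 1.85 and 1.68 times lower with the 3p strand, so both probes were lower with the 5p strand. Each of these 4 log2 ratios lay more than 3 times its spot error from 0 (0.215 to 0.244, the error that the scanner software assigns to the ratio of a single spot, which does not cover the spread between cultures). There is 1 array per strand, so the difference between the strands has no replicate check. Below -0.6 on both miR-144 arrays lay 2.32% of the 30370 probes tested, and both TMED10 probes but no other TMED probe were among them. This cut is the alternative one, and no TMED probe lay below the main cut of -1 on the miR-144-3p array.

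On the other 4 arrays, TMED10 did not pass a log2 ratio of 1 in either direction. With miR-204-5p, A_33_P3252093 had 0.11 in the SW1990 line and 0.30 in MDA-MB-231, and A_24_P917833 had 0.01 and 0.40. With miR-130-5p in PANC1 the probes had -0.36 and -0.18, and with miR-130-3p 0.00 and -0.02. The TMED10 values on these 4 arrays thus ran from -0.36 to 0.40. The 4 low arrays are all those of 2 lines, and each line carried its own transfected RNAs, so line and RNA cannot be told apart. Mock TMED10 was not at an extreme in PC3 or SK-MES-1, as the levels below show.

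**Figure D1:**
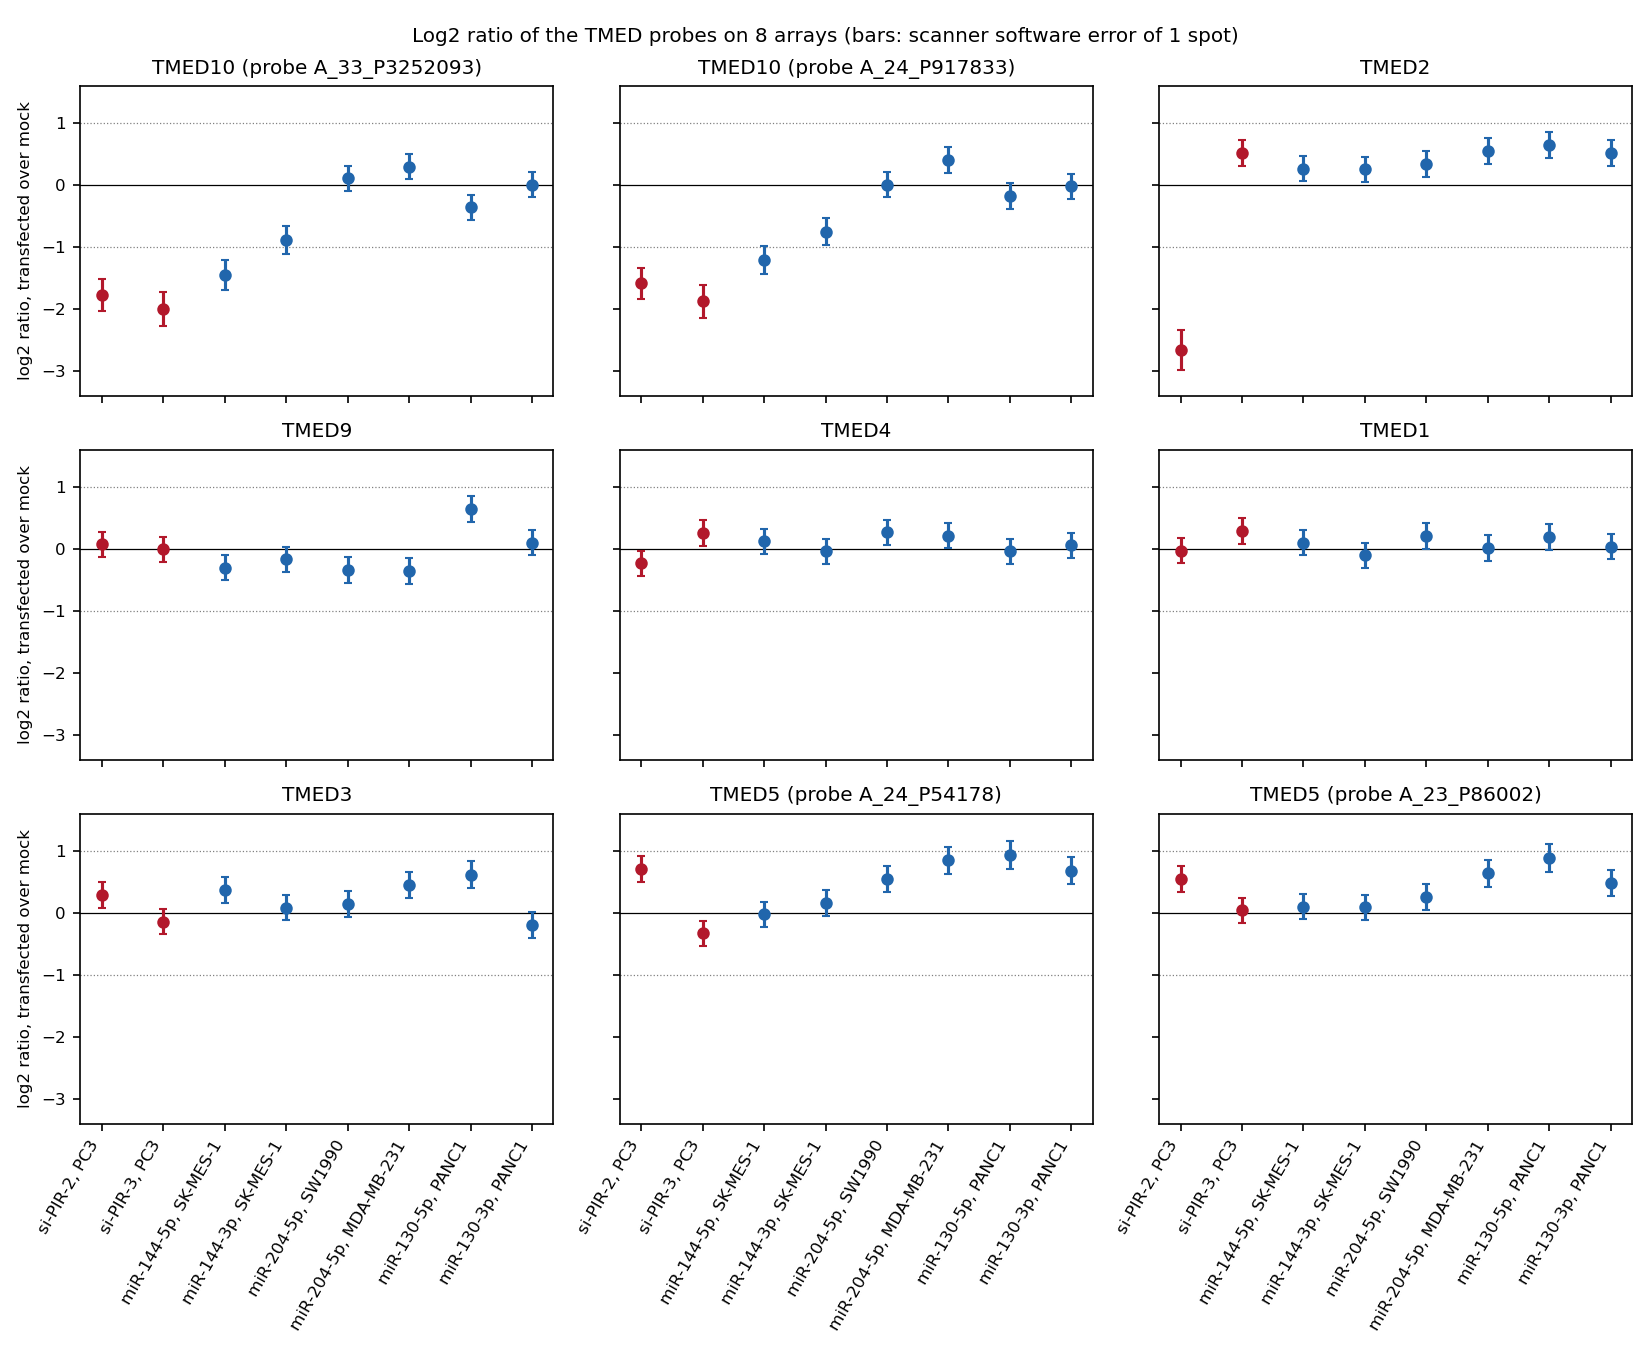
Log2 ratio of transfected over mock (vertical axis) for each of the 9 TMED probes on the 8 arrays (horizontal axis, transfected RNA and cell line). Red points are the si-PIR arrays and blue points the miRNA arrays, each point is 1 spot, bars are the scanner software's error of that spot, and dotted lines mark -1 and 1. Both TMED10 panels are low on the first 4 arrays, TMED2 is at -2.67 on the si-PIR-2 array and above 0 on the other 7, and no probe passes 1.

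**Figure D2:**
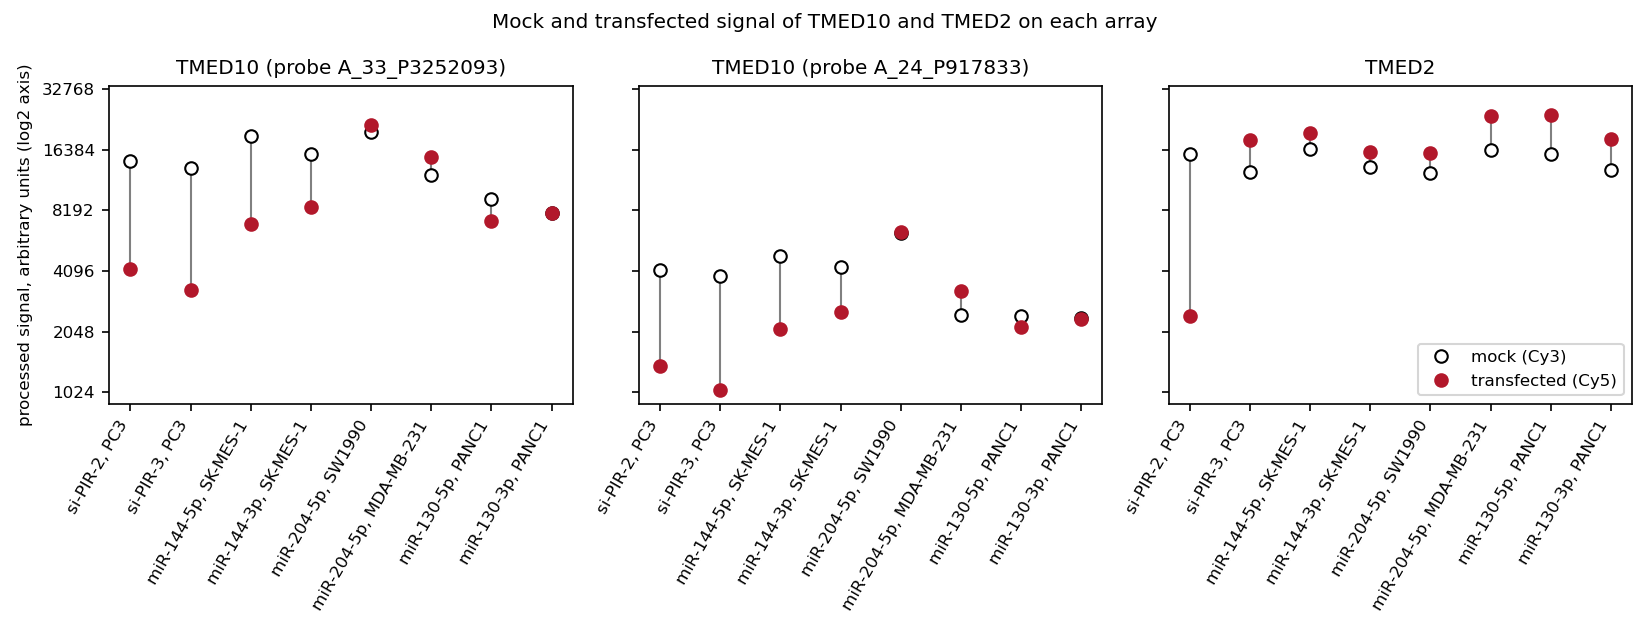
Processed signal (vertical axis, arbitrary units, log2 axis) of the 2 TMED10 probes and of TMED2 in mock cells (open circles, Cy3) and transfected cells (filled circles, Cy5), joined for each array. The transfected signal of TMED10 lies 1.68 to 4.0 times below the mock signal on the 4 arrays of PC3 and SK-MES-1 and close to it on the others, and that of TMED2 lies below it on the si-PIR-2 array alone.

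TMED2, the beta member, differed sharply between the 2 PIR siRNAs. TMED2 is the partner with which TMED10 is best known to assemble, and its single probe lies on the plus strand of chromosome 12 at 124082559 to 124082618 (hg19). With si-PIR-2, its signal was 15614 in mock and 2460 in transfected PC3 cells, 6.35 times lower, with a log2 ratio of -2.67. With si-PIR-3, it was 12711 in mock and 18252 in transfected cells, with a log2 ratio of 0.52. Relative to the 75th percentile of each array, the log2 mock levels were 6.0 and 5.77 and the log2 transfected levels 3.35 and 6.31, so the arrays parted in the transfected channel.

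The si-PIR-2 value was below that of si-PIR-3 by 9.11-fold, or -3.19 on the log2 scale, where the same difference over all 29370 probes tested had an SD of 0.628. This difference ranked 14th lowest of the 29370 probes. Below -1 in this difference lay 4.96% of all probes and above 1 lay 5.44%. TMED2 was the only TMED probe below -1, and the TMED5 probe A_24_P54178 the only TMED probe above 1, at 1.04. The other members differed by -0.49 (TMED4) to 0.50 (TMED5, A_23_P86002), and the TMED10 probes by 0.22 and 0.29. With 1 array for each siRNA and a single TMED2 spot, neither a second spot nor a second probe checks the TMED2 value. The mean of the 2 siRNAs for TMED2 (-1.07 ± 2.25, SD, n = 2) describes neither array.

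**Figure D3:**
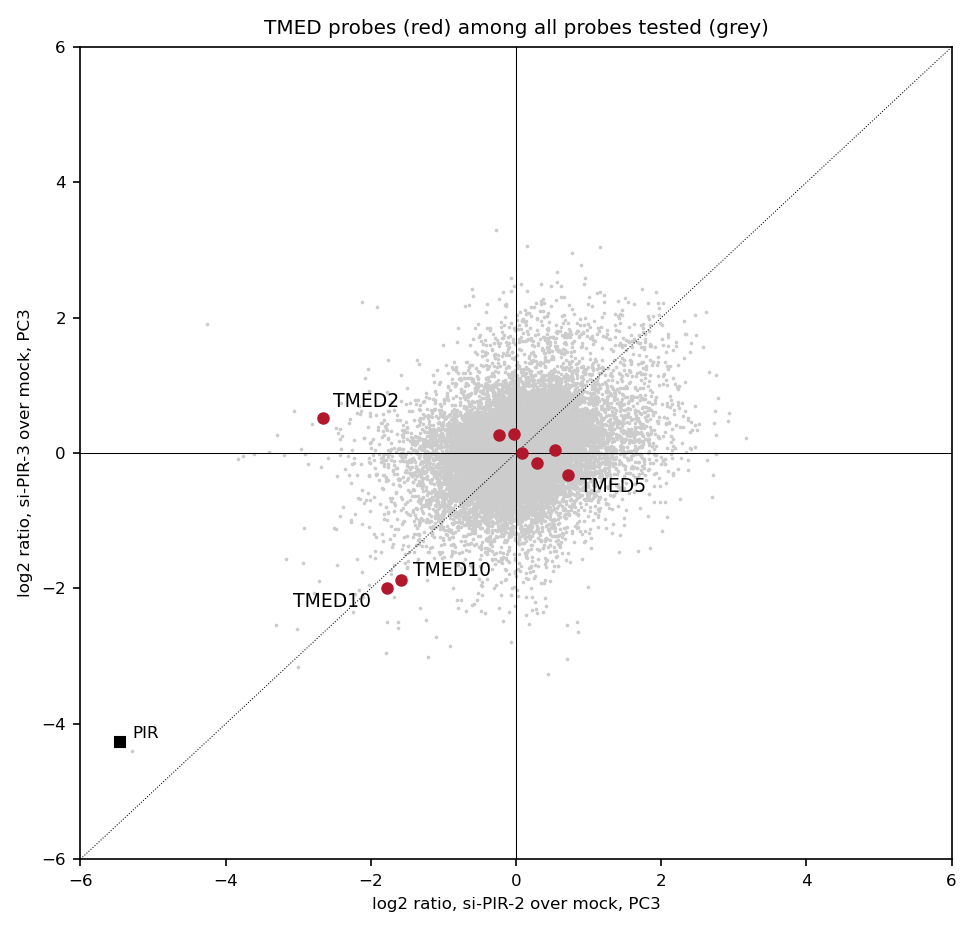
Log2 ratio over mock with si-PIR-2 (horizontal axis) and si-PIR-3 (vertical axis) in PC3 cells, 1 point per probe. Grey points are all 29370 probes tested, red points the 9 TMED probes and the black square PIR, and the dotted line marks equal ratios. Both TMED10 probes lie near that line, at -1.78 and -2.0 and at -1.59 and -1.88, whereas TMED2 lies at -2.67 and 0.52.

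On the 6 miRNA arrays TMED2 was above its mock level throughout. Its log2 ratio was 0.27 with miR-144-5p, 0.25 with miR-144-3p, 0.34 in SW1990 with miR-204-5p and 0.56 in MDA-MB-231. With miR-130-5p it was 0.65 and with miR-130-3p 0.51. The 6 values lie between 0.25 and 0.65, and that of si-PIR-3 falls in the same span. The mean of TMED2 was 0.43 ± 0.097 (SE from limma, n = 6), positive on 6 of 6 arrays, with an adjusted p of 0.112 in limma over all 24543 probes, so it did not pass the threshold. With normexp background correction and loess in place of the scanner ratio the adjusted p was 0.0499, and over all alternatives it ran from 0.0499 to 0.266. Since mock RNA was labelled with Cy3 on every array, a shift shared by all arrays cannot be told apart from a dye effect.

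TMED5, a gamma member, had the highest ratios of the family. Its probes lie on the minus strand of chromosome 1 (hg19), A_23_P86002 at 93621949 to 93622008 and A_24_P54178 at 93617690 to 93617749. With miR-130-5p in PANC1, A_24_P54178 had a signal of 2844 in mock and 5437 in transfected cells and a log2 ratio of 0.93, and A_23_P86002 had 894 and 1652 and a ratio of 0.89. With miR-130-3p the ratios were 0.68 and 0.48. With miR-204-5p they were 0.54 and 0.26 in SW1990 and 0.85 and 0.64 in MDA-MB-231. On both miR-144 arrays, TMED5 lay between -0.02 and 0.16 by both probes, below the values of the other 4 miRNA arrays.

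Over the 6 miRNA arrays the mean of TMED5 was 0.53 ± 0.145 (SE) for A_24_P54178 and 0.41 ± 0.130 for A_23_P86002, with adjusted p of 0.147 and 0.183 in limma. Neither passed the threshold. In PC3, si-PIR-2 gave 0.71 and 0.54 and si-PIR-3 gave -0.33 and 0.04, so that the siRNA with the low TMED2 value had the higher TMED5 values by both probes. A correlation over 8 arrays that share lines and mock RNA is a description only: it was 0.912 (Pearson's r) between the TMED5 probes and 0.994 between the TMED10 probes.

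The TMED5 probe A_23_P86002 and the TMED1 probe overlap in a conserved stretch, which is shown because RNA of either gene could reach both probes. Over this stretch, 29 of 34 bases are identical, and capitals mark the 5 that differ. Both are printed 5′ to 3′ on the minus strand (hg19), TMED1 from chromosome 19 at 10945725 to 10945758 and TMED5 from chromosome 1 at 93621975 to 93622008.
TMED1: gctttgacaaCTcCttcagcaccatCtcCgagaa
TMED5: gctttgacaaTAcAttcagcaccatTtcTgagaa
Of all 36 pairs of TMED probes, this was the only pair with an ungapped overlap of 20 or more bases at 70% identity or above. The ratios of the TMED1 probe did not follow those of TMED5. The former stayed between -0.10 and 0.29 on all 8 arrays, while the latter reached 0.89.

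Of the other gamma members, TMED1 varied least. TMED1, reported to bind the interleukin-33 receptor chain ST2, had a log2 ratio of -0.03 with si-PIR-2 and 0.29 with si-PIR-3, 0.10 and -0.10 with the 5p and 3p strands of miR-144, 0.21 and 0.02 with miR-204-5p in SW1990 and MDA-MB-231, and 0.19 and 0.04 with the 5p and 3p strands of miR-130. Its range of 0.39 was the smallest of the 9 probes, while the median range of all 19817 probes measured in both channels on all arrays was 0.894.

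TMED3 ranged over 0.82, near that median. TMED3 (chromosome 15, 79614644 to 79614703, plus strand, hg19) had ratios of 0.29 and -0.14 with si-PIR-2 and si-PIR-3. It had 0.37 and 0.08 with miR-144-5p and miR-144-3p, 0.15 and 0.45 with miR-204-5p in SW1990 and MDA-MB-231, and 0.62 and -0.20 with the 5p and 3p strands of miR-130. In each pair of arrays of 1 line the TMED3 value was thus higher with the first RNA than with the second, a difference that has no replicate check. The adjusted p of its mean over the 6 miRNA arrays (0.25 ± 0.132, SE) was 0.373 in limma.

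TMED7 had no probe under its own symbol. Of 2 probes named for the read-through transcript TMED7-TICAM2, A_32_P123088 also carries an accession of TMED7. Its log2 ratios were 0.08 with si-PIR-2, -0.12 with si-PIR-3, -0.45 and -0.20 with the 5p and 3p strands of miR-144, -0.02 and 0.08 with miR-204-5p, and -0.01 and -0.46 with miR-130-5p and miR-130-3p. After normexp and loess, its values with miR-144-5p and miR-130-3p were -0.20 and -0.22. The read-through and TMED7 itself cannot be told apart by this probe. The other probe, A_33_P3327270, carries an accession of TICAM2 and not of TMED7, and had 0.26 with miR-144-5p and 0.37 with miR-130-3p. Besides these, TMED6, TMED8 and the pseudogene TMED11P are on the array and are not members.

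The alpha members TMED4 and TMED9 stayed within a log2 ratio of 0.65 of mock on all 8 arrays. TMED9, a member that cycles through the early Golgi with TMED2 and TMED10, had 0.08 and -0.01 with si-PIR-2 and with si-PIR-3, then -0.30 and -0.16 with miR-144-5p and miR-144-3p. With miR-204-5p it had -0.34 (SW1990) and -0.35 (MDA-MB-231), and with miR-130-5p it had 0.65, from a signal of 2573 in mock and 4031 in transfected PANC1 cells, against 0.10 with miR-130-3p. TMED9 was thus highest on the miR-130-5p array, which is also the array with the widest spread over all probes (SD 0.728, against 0.485 to 0.592 on the other 7). TMED4, whose probe on chromosome 7 spans a splice junction (44619219 to 44620742, minus strand, hg19), had ratios from -0.23 with si-PIR-2 to 0.27 with miR-204-5p in SW1990.

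Counted by array, TMED probes below -1 were 3 of 9 with si-PIR-2, where 2.93% of all probes tested were, and 2 of 9 with si-PIR-3, where 2.4% were. They were 2 of 9 with miR-144-5p (1.88% of all probes). None of 9 was below -1 with miR-144-3p (1.03%), with miR-204-5p in SW1990 (1.9%) and MDA-MB-231 (1.84%), with miR-130-5p (6.44%) and with miR-130-3p (1.87%). The members counted were the 2 TMED10 probes on each array and TMED2 on the first. The family was chosen by TMED10 on the 2 si-PIR arrays. Its TMED10 counts and ranks on those arrays therefore follow from that choice and are a description only. No TMED probe passed 1 on any array, where 13.1% of all probes did so on at least 1. In rank order from the lowest, A_33_P3252093 of TMED10 was 168th of 31315 probes with si-PIR-2, 86th of 30582 with si-PIR-3, 163rd of 31447 with miR-144-5p and 454th of 31850 with miR-144-3p.

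The only miRNA with 2 arrays was miR-204-5p, with SW1990 on 1 and MDA-MB-231 on the other. Over both, TMED5 had a mean log2 ratio of 0.69 ± 0.135 (SE, A_24_P54178, adjusted p 0.221 in limma), TMED2 of 0.45 ± 0.120 (adjusted p 0.238) and TMED9 of -0.35 ± 0.103 (adjusted p 0.254). These 3 probes had an unadjusted p under 0.05, in the same direction in both lines. Limma called 0 (0%) of the 26651 probes tested, of which 2127 were lower and 2817 higher at an unadjusted p under 0.05. With normexp and loess limma called 734 probes lower and 862 higher, and with them TMED2, TMED5 (A_24_P54178) and TMED9, at adjusted p of 0.0432, 0.0321 and 0.0496. Over the alternatives these adjusted p ran from 0.0432 to 0.496 for TMED2, from 0.0224 to 0.478 for TMED5 and from 0.0496 to 0.295 for TMED9. The TMED10 means were 0.21 ± 0.116 and 0.20 ± 0.152 (SE), with adjusted p of 0.413 and 0.504.

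Over all 6 miRNA arrays, limma called 0.293% of 24543 probes, 35 lower and 37 higher, and 0 of the 9 TMED probes. At an unadjusted p under 0.05 in limma were 3 TMED probes, that of TMED2 and both of TMED5, all higher. Of all 24543 probes, 1689 were lower and 2475 higher at that p, so such a p was common. TMED10 had means of -0.35 ± 0.229 and -0.27 ± 0.203 (SE), with adjusted p of 0.458 and 0.526, and its ratios spread over the 6 arrays with an SD of 0.674 and 0.585, against 0.118 to 0.390 for the other 7 probes.

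In mock cells, the members differed between the 5 lines. The level was the log2 Cy3 signal less the 75th percentile of the array and was compared only within a probe. Mock TMED10 was highest in SW1990 and lowest in PANC1 by both probes, 2.86-fold apart by A_33_P3252093 and 3.22-fold by A_24_P917833. By A_33_P3252093 its level was 6.57 in SW1990, 6.08 in SK-MES-1, 5.87 in MDA-MB-231, 5.86 in PC3 and 5.05 in PANC1. By A_24_P917833 it was 4.91, 4.16, 3.55, 4.07 and 3.22 in the same lines. Arrays of the same line differed by at most 0.117 and 0.121 in these levels, where SW1990 and MDA-MB-231 had 1 array each, so MDA-MB-231 and PC3 do not differ beyond that spread by the first probe and SK-MES-1 and PC3 do not by the second. The probes disagree on whether MDA-MB-231 lay level with PC3 or below it.

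TMED1 was highest in MDA-MB-231 (2.50) and PC3 (2.11), followed by PANC1 (1.49) and SW1990 (1.44), which differ by less than the 0.174 found between arrays of a line, and lowest in SK-MES-1 (1.09). TMED4 was highest in PANC1 (3.38) and lowest in SK-MES-1 (2.24), with PC3, SW1990 and MDA-MB-231 between 3.00 and 3.09. TMED3 was 4.53 in PANC1 and 3.55 to 3.65 in the other 4 lines, which lie within the 0.117 between arrays of a line. TMED9 was 3.94 to 4.06 in SW1990, PC3 and MDA-MB-231 and 3.33 and 3.25 in SK-MES-1 and PANC1. The last 2 lines differ by less than the 0.0886 between arrays of a line. PANC1 was thus the highest line for TMED3 and TMED4 and the lowest for TMED10.

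TMED5 was highest in MDA-MB-231 and lowest in PANC1 by both probes, with a range of 0.90 (A_24_P54178) and 0.66 (A_23_P86002). TMED2 had the smallest range, 0.50, from 6.28 in MDA-MB-231 to 5.78 in PANC1, though SK-MES-1 was its highest line after normexp, loess and Aquantile scaling, and the lines other than MDA-MB-231 lie within the 0.232 between its arrays of a line. Ranges over 1 were found for 4 of the 9 TMED probes and for 68.2% of the 19879 probes measured in all mock channels, whose median range was 1.31.

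**Figure D4:**
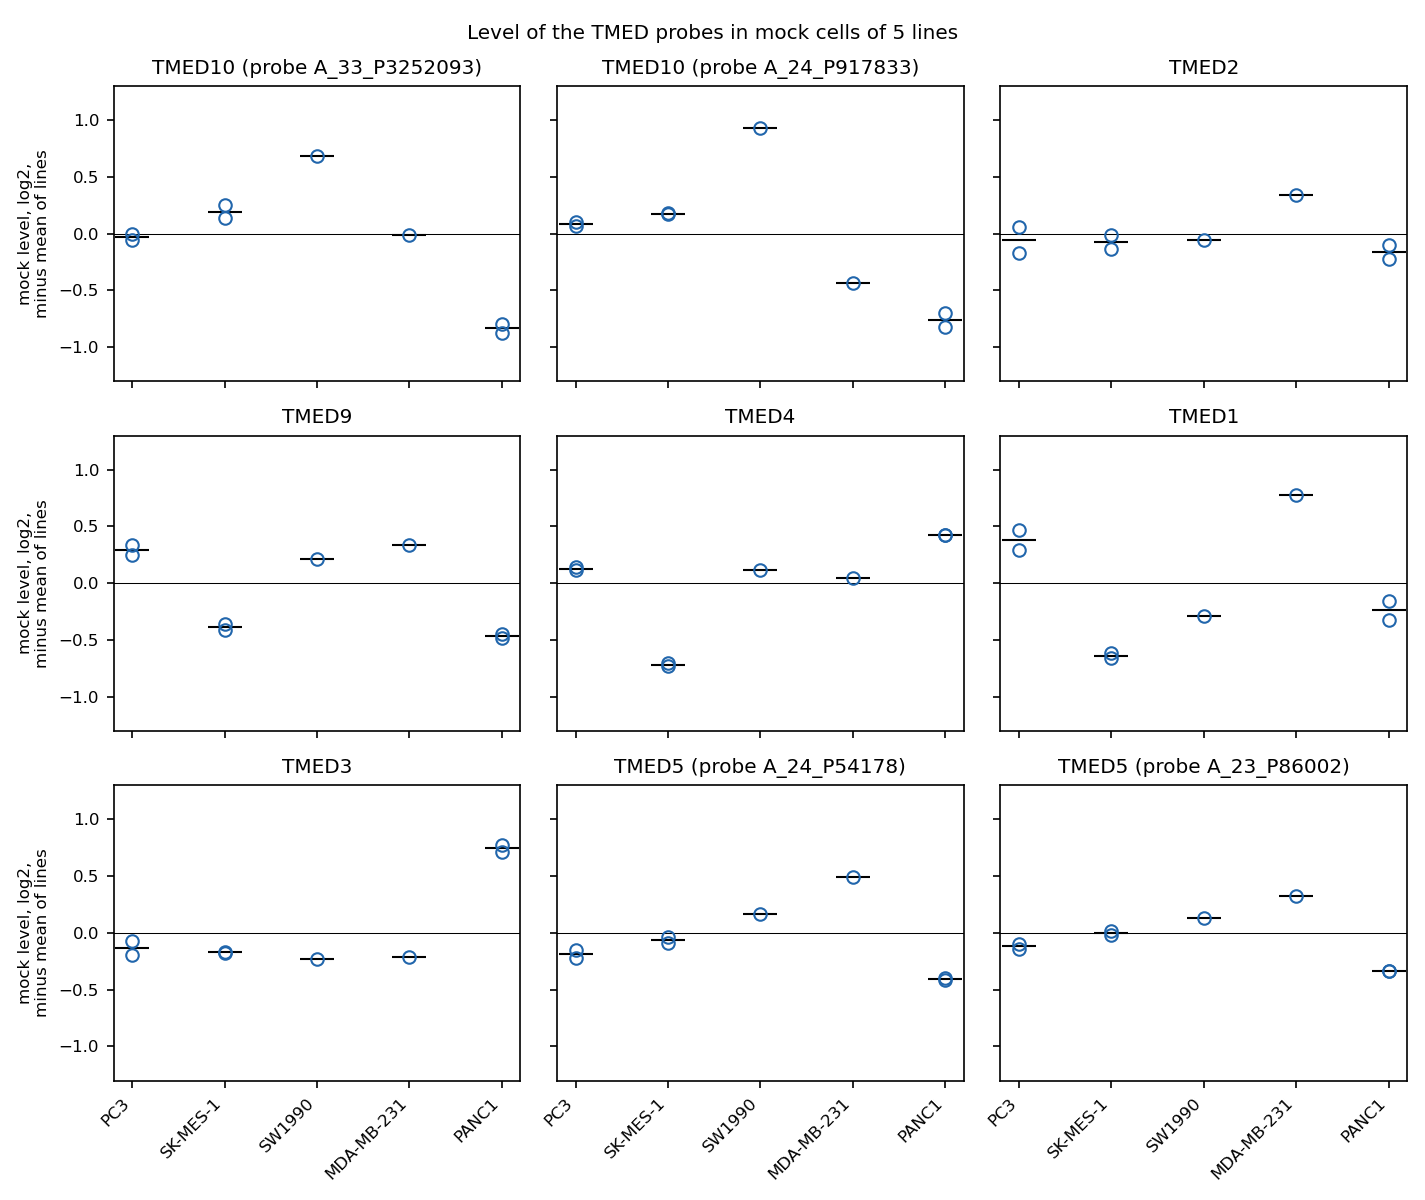
Mock level of each TMED probe in the 5 lines, as log2 Cy3 signal less the array's 75th percentile, drawn relative to the mean of the 5 lines (vertical axis) for each line (horizontal axis). Circles are arrays and dashes the mean of a line. TMED10 is highest in SW1990 and lowest in PANC1 in both of its panels, and TMED3 stands out in PANC1 alone.

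Among the genes of the machinery that works with the p24 proteins, none passed a log2 ratio of 1 on both arrays of PC3 or on both of SK-MES-1. The lists held the COPII coat (14 genes tested), the COPI coat and its ARF regulators (16), other cargo receptors of the ER and Golgi (14), GPI-anchor attachment and remodelling (10), Golgi stacking and tethering (11) and the unfolded protein response (15), which restores ER folding capacity. On both si-PIR arrays, 0 genes of any list lay below -1 and 0 above 1, where 90 and 157 of 22459 genes did. The list medians over these arrays ran from -0.03 (GPI anchor) to 0.11 (other cargo receptors), beside 0.03 for all genes.

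On the miR-144 arrays the medians ran from -0.24 (unfolded protein response) to 0.14 (GPI anchor), beside 0.03 for all genes, and again 0 genes of any list passed 1 in either direction on both arrays, where 107 lay below and 242 above of 23152. Limma called 0 genes of the lists with miR-204-5p, where it called 0 of 20490 genes, and 0 over the 6 miRNA arrays, where it called 31 lower and 33 higher of 18976.

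Some of the genes with the lowest or highest mean of a list on the si-PIR arrays differed between the siRNAs. Choosing genes by an extreme mean favours those that were low or high on a single array. SEC24A, a cargo-binding COPII subunit, had -1.46 with si-PIR-2 and -0.12 with si-PIR-3. ARCN1, the delta subunit of COPI, had 0.23 and -1.18, and PGAP2, which remodels GPI lipids, 0.47 and -1.36. ARCN1 and PGAP2 took opposite signs, but both were low with si-PIR-3, whereas TMED2 was low with si-PIR-2. EDEM1, which sends misfolded glycoproteins for degradation, had -1.08 and -0.00 in PC3 and -1.17 and -0.95 with miR-204-5p in SW1990 and MDA-MB-231.

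The remaining genes of this choice, like SEC24A and EDEM1, did not take opposite signs with the siRNAs. EDEM1 with si-PIR-3 (-0.00) and ERGIC1 with si-PIR-2 (-0.01) lay too near 0 for a sign to be read. SEC23A, the COPII subunit that activates SAR1, had 0.65 and 0.69, and KDELR2, which returns ER residents, 0.50 and 0.51. PIGA, of the first step of GPI synthesis, had 0.42 and 0.68, and ARF4 0.33 and 0.23. Wider apart were SEC22B at 0.58 and 0.11, ATF4 at 0.76 and 0.30, GOLGA2 at -0.46 and -0.12 and ERGIC1 at -0.01 and -0.68. SEC23A, unlike TMED10, took opposite signs in PC3 and SK-MES-1, with -0.68 and -0.46 on the miR-144 arrays.

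By Pearson's r over the 8 arrays, the genes most like TMED10 (A_33_P3252093) among 7586 genes were LMNTD2 (0.958), the transcript BX095413 (0.946), TCEA2 (0.944), MBOAT2 (0.939) and TM4SF1 (0.936). None had ratios as low as TMED10 on all 4 of its low arrays. The nearest in size was MBOAT2, an acyltransferase of membrane phospholipids, with -0.87 with si-PIR-2, -1.23 with si-PIR-3, -1.06 and -0.42 with miR-144-5p and miR-144-3p, and -0.10 to 0.89 on the other 4 arrays. TCEA2, a transcription elongation factor, had -0.90, -0.80, -0.32 and -0.51 on the first 4 arrays and 0.02 to 0.18 on the others. These are the most extreme of many correlations over 8 points that share lines, and no other TMED gene was among them. TMED1, TMED3 and TMED4 could not be, since their SD over the arrays was below the 0.3 required. With the same TMED10 probe, r was 0.678 for TMED5 (A_24_P54178), 0.483 for TMED2 and -0.084 for TMED9.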

How the data were processed

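Total RNA of mock (Cy3) and transfected (Cy5) cells was hybridised to 8 Agilent arrays of a design annotated on hg19, on 1 slide read in 1 scan. The deposited scanner files, made by the authors with Agilent Feature Extraction 11.5.1.1, hold linear spot intensities after background subtraction and dye normalization (linear and LOWESS), and log10 ratios, Cy5 divided by Cy3. A deposited value table repeats those log10 ratios (largest difference 0). Deposited log10 ratios were turned to log2 by a factor of 3.321928. Of 62976 spots, 60901 were not control spots. Of these 60901, 43.7 to 48.6% were well above background in Cy3 and 51.8 to 56.5% in Cy5, and 0 were saturated. Among them, 126 to 173 outlier spots per array, none of a TMED probe, were left out. The number of arrays limits the precision.

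Probes that exceeded background clearly in 1 channel or both, on every array of a comparison, were tested with limma 3.58.1 in R 4.3.3 (lmFit and eBayes, mean ratio against 0, Benjamini-Hochberg over all probes, threshold 0.05). The 6 miRNA arrays were fitted with cell line as a random block (duplicateCorrelation, 0.157), since arrays of a line share mock cells as far as the labels say. Mock RNA is 1 control sample whose own spread is left out, and nothing says that arrays came from separate cultures, so p-values measure only the spread between these arrays, which may be technical. The scripts were tested on simulated data. Named were all members with every probe, PIR, the lowest and highest gene of each pathway list on the si-PIR arrays and the 5 genes most like TMED10 (brightest probe per gene, SD over arrays of at least 0.3). Members and lists were chosen with earlier results of these data known. Alternatives were normexp (offset 50) or no background correction with loess, median centring, other filters on dim probes, a log2 fold of 0.6, other scalings of mock levels, and leaving out each array. Sequences were read from RefSeq tables and the scanner files with Python 3.11.15 and pandas 2.3.3, and figures drawn with matplotlib 3.10.9. The numbers of the siRNAs are those of the labels.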

Additional observations from a re-analysis of the deposited data

Results flagged for a closer look

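Of the TMED probes, 3 had ratios beyond their spot error in opposite directions with the 2 PIR siRNAs in PC3, each siRNA on 1 array, and the difference was not tested. The si-PIR-2 minus si-PIR-3 log2 ratio was -3.19 for TMED2, 1.04 for TMED5 (A_24_P54178) and -0.49 for TMED4. The second TMED5 probe differed by 0.50, with both ratios above 0. No group held the 4 arrays that a check for outlying samples needs.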

How the results depend on the processing

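Of 261 mean ratios of single TMED probes under the alternatives, 6 came to pass the threshold, and 8 changed sign, all of them untested means of the si-PIR arrays. Without the si-PIR-2 array, TMED2 went from -1.07 to 0.52, TMED3 from 0.07 to -0.14, TMED5 (A_24_P54178) from 0.19 to -0.33 and TMED9 from 0.04 to -0.01. Without the si-PIR-3 array, TMED1 went from 0.13 to -0.03 and TMED4 from 0.02 to -0.23. Median centring put TMED4 at -0.02 and TMED9 at -0.00. TMED10 kept its sign in all of these. With normexp and loess, limma called 3 TMED probes with miR-204-5p and 1 over the 6 miRNA arrays, TMED2, in place of 0. With loess and no background correction it called 2 with miR-204-5p (TMED2 and TMED5). Over all probes, the calls with miR-204-5p went from 0 to 734 lower and 862 higher, 872 and 838 with no background correction, and 6 and 0 among probes well above background in both channels; the cause was not tested. Over the 6 arrays, 35 lower and 37 higher became 43 and 128 with normexp and loess, 40 and 109 with no background correction, 31 and 12 with median centring, 47 and 75 without the cell line block and 28 and 48 with no filter. Leaving out 1 of the 6 arrays left 6 to 8 lower and 0 to 3 higher, and 0 TMED probes each time. At a log2 fold of 0.6, 9 pairs of TMED probe and array lay above it in place of 0 above 1. TMED probes with a mock range over 1 were 2 after scaling between arrays (Aquantile) and 7 in the Cy5 channel, in place of 4, and 4 to 5 without single arrays. The probes below -1 on both si-PIR arrays, 2, became 3 (si-PIR-2) or 2 (si-PIR-3) on a single array. Leaving out a miR-204-5p array left a single array and no test. A slide block was not run, since there is 1 slide. No paired analysis was possible because the replicate numbers are given in accession order and each array already sets transfected against mock RNA.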
